A study of Mus musculus with 4 samples.

Results

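The genes described here are Lepr, the leptin receptor gene, its relatives Leprot and Leprotl1, the adiponectin receptor genes Adipor1 and Adipor2, the hormone gene Adipoq and the protease gene Cfd. They were taken by symbol from the annotation of the array, which named exactly 1 probe set each for 6 of the 7 genes, so no choice among probe sets had to be made. No probe set was annotated with the symbol of Cfd, which is not analysed here. Of the 6 genes, 5 were among the 13308 genes that passed a filter on dim probe sets, out of 22180 genes with a symbol of their own; Adipoq did not pass. The genes were chosen by family with the values of these 4 arrays known, and Lepr in particular was selected on its diet difference here, so all values are a description without a test.

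Liver RNA of 16-week-old C57Bl6 mice was measured on 4 Affymetrix arrays, 1 for each group. The groups were knockout mice (ALB Cre MyD88 lox/lox) on high-fat diet with 60% fat, knockout mice on control diet with 9.4% fat, wild-type mice (MyD88 lox/lox) on high-fat diet, and wild-type mice on control diet. All 4 groups carried the floxed allele; the Cre is driven by the albumin promoter, which is active in hepatocytes, so other liver cells keep Myd88. RNA of 4 to 5 mice per group, chosen for RNA quality, was pooled onto the group's single array. The spread between mice was therefore not measured, and the number of arrays limits the precision.

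Leptin is a hormone of fat cells that signals through its receptor, a class I cytokine receptor, to the kinase JAK2 and the transcription factor STAT3. In mouse liver the receptor gene yields short and soluble forms as well as the long signalling form, and liver is a source of soluble receptor in plasma. Adiponectin, the product of Adipoq, is also made by fat cells; it binds the receptors encoded by Adipor1 and Adipor2, which act through AMP-activated kinase, PPARalpha and ceramidase activity. Leprot and Leprotl1 encode small membrane proteins of endosomes that limit the amount of leptin receptor and growth hormone receptor at the cell surface. Cfd encodes adipsin, also known as complement factor D.

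Lepr and Leprot are neighbours on chromosome 4, with Leprot directly upstream among annotated protein-coding genes. Because these neighbours gave different array values, the 250 bases upstream of their annotated RefSeq starts are shown; RefSeq gave 2 starts for Lepr and 1 for Leprot on mouse build GRCm38.p6. Capitals mark matches on either strand to a GC box (GGGCGG) or a CCAAT box (CCAAT).
Lepr start 1, GRCm38.p6 chr4:101717157-101717406, plus strand: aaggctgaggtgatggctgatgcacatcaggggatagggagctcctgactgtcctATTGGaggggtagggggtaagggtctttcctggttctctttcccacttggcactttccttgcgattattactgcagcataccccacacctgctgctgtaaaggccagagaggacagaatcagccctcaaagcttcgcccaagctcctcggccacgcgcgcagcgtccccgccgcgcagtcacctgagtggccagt
Lepr start 2, GRCm38.p6 chr4:101717656-101717905, plus strand: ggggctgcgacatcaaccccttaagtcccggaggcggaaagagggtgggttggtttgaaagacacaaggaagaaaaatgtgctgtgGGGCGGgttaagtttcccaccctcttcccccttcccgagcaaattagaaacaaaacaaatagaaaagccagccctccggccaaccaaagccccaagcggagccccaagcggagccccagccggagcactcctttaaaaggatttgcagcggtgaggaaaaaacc
Leprot, GRCm38.p6 chr4:101647533-101647782, plus strand: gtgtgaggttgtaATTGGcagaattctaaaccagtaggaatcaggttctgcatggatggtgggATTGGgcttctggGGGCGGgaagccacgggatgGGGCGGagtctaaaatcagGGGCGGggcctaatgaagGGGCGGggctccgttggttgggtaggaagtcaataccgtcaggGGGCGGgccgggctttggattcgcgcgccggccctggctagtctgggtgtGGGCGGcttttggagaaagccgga
Lepr had 1 CCAAT box upstream of start 1 and 1 GC box upstream of start 2, while Leprot had 6 GC boxes and 2 CCAAT boxes, and no matches overlapped in these windows. Over 32851 such windows of annotated starts, 32.7% held a GC box and 33.8% a CCAAT box. Neither a TATA box (TATAAA) nor a STAT site (TTCNNNGAA) was found in the 3 windows; 12.4% and 7.02% of all windows held one. GC content was 58.4% and 54.8% in the Lepr windows and 60.8% in the Leprot window, against a median of 52.4%. These matches describe letters and were not tested against the array values. Upstream windows were found in RefSeq for 6 of the 7 genes.

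Lepr was lower on high-fat diet in both genotypes. Its log2 expression value (probe set 17415979) was 3.88 in knockout on high-fat diet, against 5.18 in knockout on control diet. In wild type it was 4.05 on high-fat diet, against 5.52 on control diet. Both high-fat arrays thus lay below both control arrays, with no overlap and a gap of 1.13 on the log2 scale between the higher high-fat array and the lower control array. As the measured quantity is RNA of whole liver, fewer cells that express Lepr and less Lepr RNA per cell cannot be told apart.

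**Figure D1:**
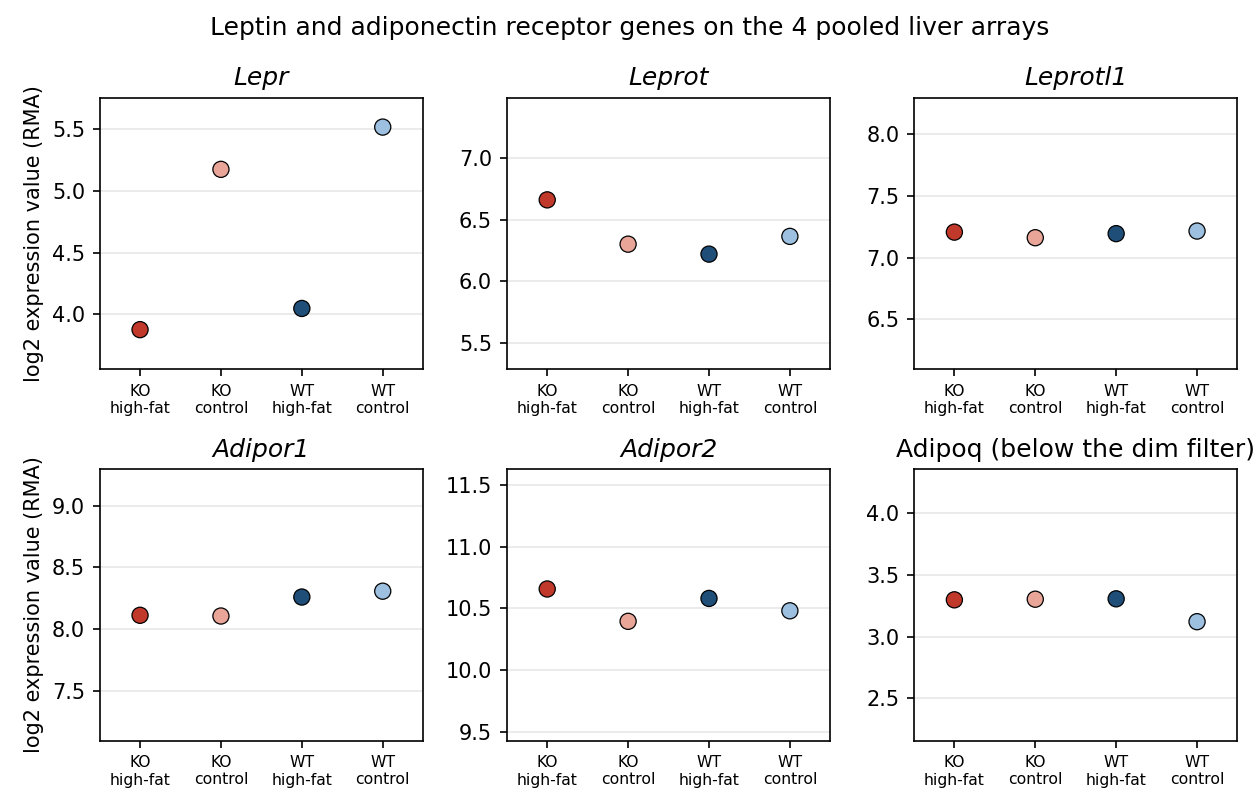
Log2 expression value (vertical axis, same span of 2.2 in each panel) of the 6 genes with a probe set on the 4 pooled arrays (horizontal axis); each point is 1 array, without an error since each group has 1 array. Lepr is at 3.88 and 4.05 on the high-fat arrays, against 5.18 and 5.52 on the control arrays, and no other gene spans more than 0.44.

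The diet difference of Lepr was -1.30 in knockout (2.46-fold lower) and -1.47 in wild type (2.77-fold lower). Among the 13308 measured genes, 0.286% were lower by 2-fold or more on high-fat diet in knockout and 0.564% in wild type. Lepr was the 17th lowest in knockout and the 24th lowest in wild type. In both genotypes at once, 10 genes (0.0751%) were at least 2-fold lower, and Lepr was the 4th of them by the smaller of the 2 differences, after Csad, Acacb and Tubb2a. Both high-fat arrays were below both control arrays for 21.2% of genes, and at least 2-fold below for 8 genes (0.0601%), of which Lepr was the 7th by the size of the gap. Since Lepr was proposed from this contrast, these places say where it stood and support nothing further.

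By genotype, Lepr differed less. Knockout minus wild type gave a log2 difference of -0.34 between the control-diet arrays and of -0.17 between the high-fat arrays. On control diet 9.79% of measured genes had a larger difference between the genotypes, and on high-fat diet 44.7% did. The diet difference in knockout minus that in wild type was 0.17, and 55.3% of genes had a larger one. The order of the arrays, lowest first, was knockout high-fat, wild-type high-fat, knockout control and wild-type control; within each diet, whether the 2 neighbours in this order differ beyond the spread between mice was not measured.

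The high-fat values of Lepr lay close to the dim end of the arrays. The filter kept genes with a mean log2 value of at least 3.47, and the array medians over all probe sets were between 3.53 and 3.56, so Lepr at 3.88 and 4.05 was little above them. Robust multi-array averaging compresses differences of dim probe sets, and no background call was used, so how far the high-fat values stand above background is unknown. The probe set gives 1 value for the gene, and which of the receptor's forms it measures was not analysed here.

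Leprot, the neighbour of Lepr, did not share its pattern. Its log2 value (probe set 17415973) was 6.66 in knockout on high-fat diet, against 6.30 in knockout on control diet. In wild type it was 6.22 on high-fat diet, against 6.36 on control diet. The knockout high-fat array was the highest of the 4, and the high-fat and control arrays overlapped. The diet difference was 0.36 in knockout and -0.14 in wild type, and knockout minus wild type gave 0.44 between the high-fat arrays and -0.06 between the control-diet arrays. A larger difference between genotypes on high-fat diet was found for 8.25% of genes, and Leprot had the largest such difference of the measured members; 0.391% of genes differed 2-fold or more in that comparison, and Leprot was not among them.

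The protein-coding genes next to the pair were read too, a choice made after the array files had been opened. Ak4, an adenylate kinase gene, differed with diet by 0.30 in knockout and 0.15 in wild type, and Dnajc6, which encodes the clathrin uncoating factor auxilin, by -0.09 and -0.25. Both lie upstream of Leprot. Downstream of Lepr, 2 of the 3 nearest genes had a probe set and neither passed the filter. Among the measured neighbours, Lepr was the 1 gene with a 2-fold difference, and it was chosen on that difference.

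Leprotl1, the paralogue of Leprot, had nearly the same log2 value on each array (probe set 17508722). It was 7.21 in knockout on high-fat diet, against 7.16 in knockout on control diet, and 7.19 in wild type on high-fat diet, against 7.21 in wild type on control diet. Its diet differences of 0.045 in knockout and -0.021 in wild type were smaller in size than those of 84.3% and 92.3% of genes, and both took the opposite sign after cyclic loess and after quantile normalisation.

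The adiponectin receptor genes differed little between the arrays. Adipor1, read from probe set 17217455, was at a log2 value of 8.11 in knockout on high-fat diet, against 8.11 in knockout on control diet. In wild type it was 8.26 on high-fat diet, against 8.31 on control diet. Both knockout arrays lay below both wild-type arrays, which was so for 14.1% of measured genes. The genotype difference was -0.20 between the control-diet arrays and -0.15 between the high-fat arrays, and larger ones were found for 28.5% and 50.6% of genes.

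Adipor2 encodes the adiponectin receptor known to be abundant in mouse liver. Its log2 value (probe set 17470301) was 10.66 in knockout on high-fat diet, against 10.39 in knockout on control diet. In wild type it was 10.58 on high-fat diet, against 10.48 on control diet. Both high-fat arrays lay above both control arrays, as for 19.1% of genes, with diet differences of 0.26 in knockout and 0.10 in wild type; 28.2% and 64.5% of genes had larger ones. Its genotype difference was -0.09 between the control-diet arrays and 0.08 between the high-fat arrays.

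Over the 5 measured members, 1 was at least 2-fold lower on high-fat diet in each genotype, which was Lepr, chosen on this difference. Over all measured genes 0.286% were so in knockout and 0.564% in wild type. None of the 5 was 2-fold higher, where 0.323% of genes were so in knockout and 0.488% in wild type. The median diet difference of the 5 was 0.05 in knockout and -0.05 in wild type, against 0.01 and -0.03 over all measured genes. Between genotypes 0 of the 5 reached 2-fold on either diet, where 0.503% of genes did so with control diet and 0.391% with high-fat diet. On control diet the 5 knockout differences lay between -0.34 and -0.05, where 53.3% of all measured genes were lower in knockout, and this comparison rests on 1 pair of arrays. The 4 members other than Lepr gave 16 differences between 2 arrays, all between -0.20 and 0.44.

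**Figure D2:**
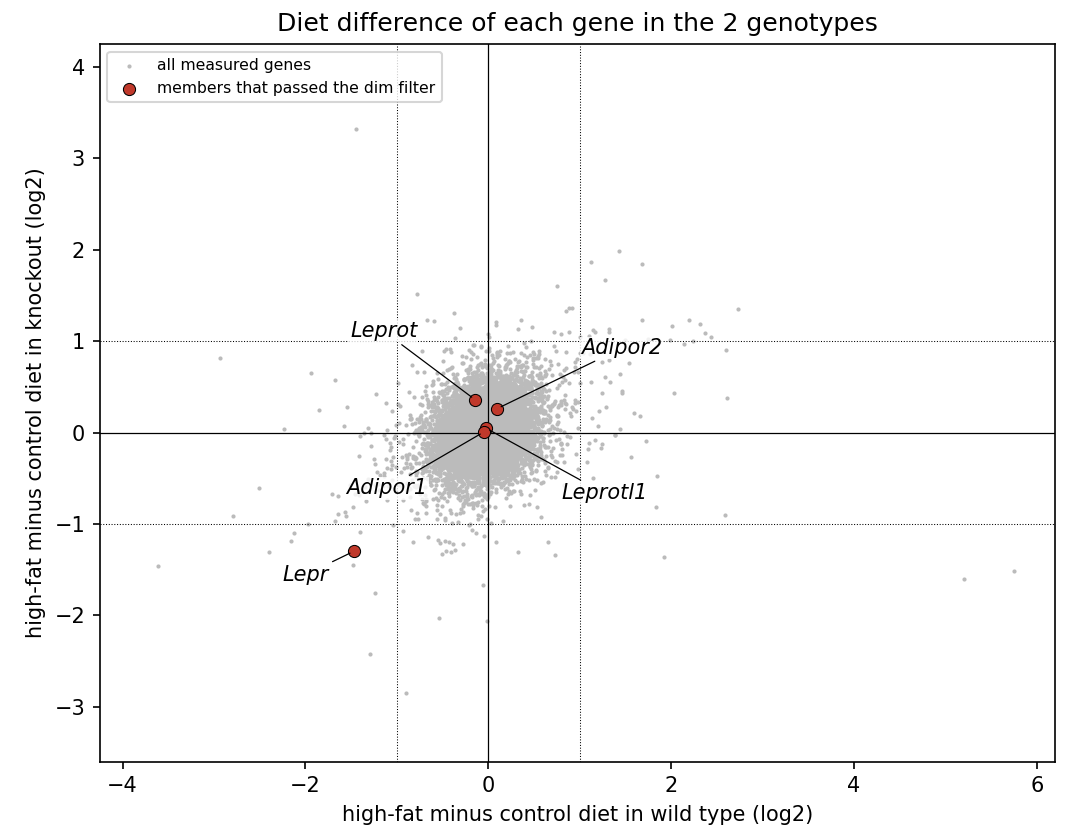
Log2 difference between high-fat and control diet in wild type (horizontal axis) and in knockout (vertical axis) for 13308 measured genes (grey) and the 5 measured members (red); dotted lines mark 2-fold. The 2 axes share no array. Lepr stands at -1.47 and -1.30, in the corner of genes that were 2-fold lower in both genotypes, and the other members lie near the centre.

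Adipoq was not above the filter. Its log2 value (probe set 17324404) was 3.30 in knockout on high-fat diet, 3.30 in knockout on control diet, 3.31 in wild type on high-fat diet and 3.12 in wild type on control diet, below the median of each array. Lep, the leptin gene, was as dim, with 3.24, 3.13, 3.13 and 3.13 on the same arrays. The differences of both genes are therefore given without a reading.

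Of 16 adipocyte markers, 11 passed the filter and 0 reached 2-fold between any of the arrays compared. Their summed log2 value was between 47.1 and 47.9 on the high-fat arrays and between 46.5 and 47.6 on the control arrays. Plin1, which encodes the perilipin coat of fat cell lipid droplets, stayed between 3.33 and 3.66, around the dim filter at 3.47. Apart from Fabp4 and Lpl, the markers that passed had means between 3.56 (Plin1) and 4.15 (Lipe), little above that filter. Their steady values therefore say little about the amount of fat cell RNA. Fabp4, a fatty acid carrier gene that endothelial cells and macrophages also express, was 7.07 in knockout on high-fat diet, against 6.31 in knockout on control diet, and 6.43 in wild type on high-fat diet, against 6.10 in wild type on control diet. The defining genes Adipoq, Lep, Adig and Slc2a4 were below the filter.

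Genes downstream of the leptin receptor came next. Of 21 listed genes, 16 were measured, and 0 reached 2-fold in any comparison. Between the diets, 81 of all 13308 measured genes reached 2-fold in knockout and 140 in wild type. The same background applies to the diet differences of the lists below. On high-fat diet 9 of the 16 were lower and 7 higher in knockout, with a median of -0.09. In wild type 12 were lower and 4 higher, with a median of -0.11. Over all measured genes, 47.7% were lower in knockout and 55.0% in wild type, with medians of 0.01 and -0.03. The list's median was -0.14 in knockout and -0.06 in wild type after cyclic loess, and -0.15 and -0.04 after quantile normalisation. Irs2, an adaptor of the insulin receptor that leptin signalling also uses, was lower by -0.55 in knockout and -0.89 in wild type. Igfbp2, a binding protein of insulin-like growth factors that leptin induces in mouse liver, had a log2 value of 9.0 in knockout on high-fat diet, against 9.65 in knockout on control diet, and 9.28 in wild type on high-fat diet, against 9.77 in wild type on control diet. Its diet differences were -0.65 and -0.48, so both high-fat arrays were below both control arrays. That order held for 7 of the 16 genes in the list and for 21.2% of all measured genes. The opposite order, both high-fat arrays above both control arrays, held for 2 of the 16 and for 19.1% of all measured genes. Neither share was tested.

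The feedback inhibitors and STAT genes of the pathway had no 2-fold diet difference in either genotype. Socs3, the STAT3-induced inhibitor of leptin signalling, differed by -0.61 in knockout and -0.01 in wild type; it was highest on the knockout control array, at 4.81, and between 4.20 and 4.36 on the others. Ptpn1, the phosphatase that acts on JAK2, differed by -0.56 and -0.05. Stat3 itself differed by -0.47 in knockout and 0.06 in wild type, and was also highest on the knockout control array. Stat5a, a related transcription factor gene, differed by 0.55 and -0.11. Whether these diet differences differ between the genotypes was not tested.

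Lepr was chosen on its 2-fold diet difference. Few measured genes had one, 81 of 13308 in knockout and 140 in wild type. None of the other class I cytokine receptors measured did. Of 11 measured, 5 were lower on high-fat diet in knockout and 4 in wild type, with medians of 0.01 and 0.07, and 0 reached 2-fold. Over all measured genes, 47.7% were lower in knockout and 55.0% in wild type. Both high-fat arrays were below both control arrays for 2 of the 11 and above them for 5, against 21.2% and 19.1% of all measured genes. The 2 were Crlf2, with diet differences of -0.29 in knockout and -0.09 in wild type, and Cntfr, with -0.19 and -0.11. Lifr, the receptor of leukaemia inhibitory factor, was higher by 0.32 in knockout and 0.72 in wild type, and Il6ra, the interleukin-6 receptor chain, by 0.32 in each. Il6st, the shared signalling chain gp130, was between 9.97 and 10.01 on the 4 arrays. Il27ra differed by 0.01 and 0.49, and Osmr, the oncostatin M receptor, was higher in knockout than in wild type by 0.40 between the control-diet arrays and 0.48 between the high-fat arrays.

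On the adiponectin side, 15 of 16 listed signalling genes were measured and 0 reached 2-fold between 2 arrays. With high-fat diet, 11 were higher and 4 lower in knockout, with a median of 0.09. In wild type 4 were higher and 11 lower, with a median of -0.11. Over all measured genes, 52.2% were higher in knockout and 44.9% in wild type, so the list leaned the way all genes did in each genotype. Its medians were closer to 0 after cyclic loess, at 0.04 in knockout and -0.05 in wild type, and after quantile normalisation, at 0.06 and -0.05. Ppargc1a, the coactivator of mitochondrial and gluconeogenic genes, differed by -0.02 in knockout and -0.77 in wild type. Pparg, a receptor gene of fat cell differentiation that fatty liver expresses, had a log2 value of 5.02 in knockout on high-fat diet, against 4.50 in knockout on control diet, but 4.46 in wild type on high-fat diet, against 5.07 in wild type on control diet. Its diet difference in knockout minus that in wild type was 1.13, and 1.22% of genes reached 2-fold in either direction in that quantity. Cdh13, which encodes the T-cadherin that binds adiponectin, lay between 3.62 and 4.04. The kinase gene Prkab1 was higher in knockout than in wild type by 0.40 on control diet.

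Relatives of the adiponectin receptors in the PAQR family were measured for 6 of 9 genes, none of which reached 2-fold. Paqr9 was 9.05 in knockout on high-fat diet, against 9.50 in knockout on control diet, and 8.91 in wild type on high-fat diet, against 9.46 in wild type on control diet; its diet differences were -0.45 and -0.55. Paqr4 was higher by 0.14 and 0.42. Medians of the family were 0.01 in knockout and 0.00 in wild type. Of the C1q and TNF related proteins, relatives of adiponectin, 7 of 14 were measured and 0 reached 2-fold between 2 arrays. C1qa, a subunit gene of the first complement component that Kupffer cells express, was lower by -0.64 in knockout and -0.42 in wild type, and C1qtnf1 differed by 0.36 and -0.66.

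The substrate and partners of adipsin were read in place of Cfd. Cfb, which encodes factor B, the protein that adipsin cleaves, lay between 10.93 and 11.13. Of 8 measured genes of the alternative complement pathway 0 reached 2-fold, and their medians were 0.14 in knockout and -0.06 in wild type (-0.03 after cyclic loess and -0.02 after quantile normalisation). C3ar1, the C3a receptor gene, differed by 0.45 in knockout and -0.17 in wild type, and C5ar1 was higher in knockout than in wild type on high-fat diet by 0.49.

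Among other adipokines and receptors, 8 of 17 genes were measured and 1 reached 2-fold. That was Fgf21, a fasting hormone gene of liver. Its log2 value was 5.14 in knockout on high-fat diet, against 6.32 in knockout on control diet, and 5.16 in wild type on high-fat diet, against 7.31 in wild type on control diet. As with Lepr, both high-fat arrays were below both control arrays, but the control arrays lay farther apart, by a genotype difference of -0.99. Klb, the coreceptor of FGF21, differed by 0.11 in knockout and -0.65 in wild type. Nampt, an enzyme of NAD synthesis that is also secreted by fat, was higher by 0.51 and 0.25, and Serpina12 differed by -0.48 and 0.37.

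Lepr is known as a fasting-induced gene of mouse liver, so fasting and insulin responsive genes were read beside it. Of 14 measured genes, 11 were lower on high-fat diet in knockout and 13 in wild type, with medians of -0.30 and -0.68, against 0.01 and -0.03 over all measured genes. In wild type 5 of the 14 were at least 2-fold lower, and in knockout 1 was, Fgf21. Over all measured genes 0.564% were so in wild type and 0.286% in knockout. Igfbp1, an insulin-repressed gene, differed by -0.56 in knockout and -1.21 in wild type. Scd1, the stearoyl-CoA desaturase gene that leptin represses, differed by -0.87 and -1.57, and Cyp4a14, a fatty acid hydroxylase gene whose probes may mix family copies, by -0.91 and -2.80. Pdk4, a kinase gene that limits glucose oxidation, differed by 0.05 and -1.32. Srebf1, the insulin-induced regulator of fatty acid synthesis, went the other way, higher by 0.61 and 0.82. Fasn, the fatty acid synthase gene, did not follow Srebf1 and was lower by -0.52 in knockout and -0.60 in wild type. The list pools fasting-induced with insulin-induced genes, so its counts and medians do not give the direction of a fasting response. This list holds genes whose diet difference was already known from these arrays, and it is no independent evidence.

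**Figure D3:**
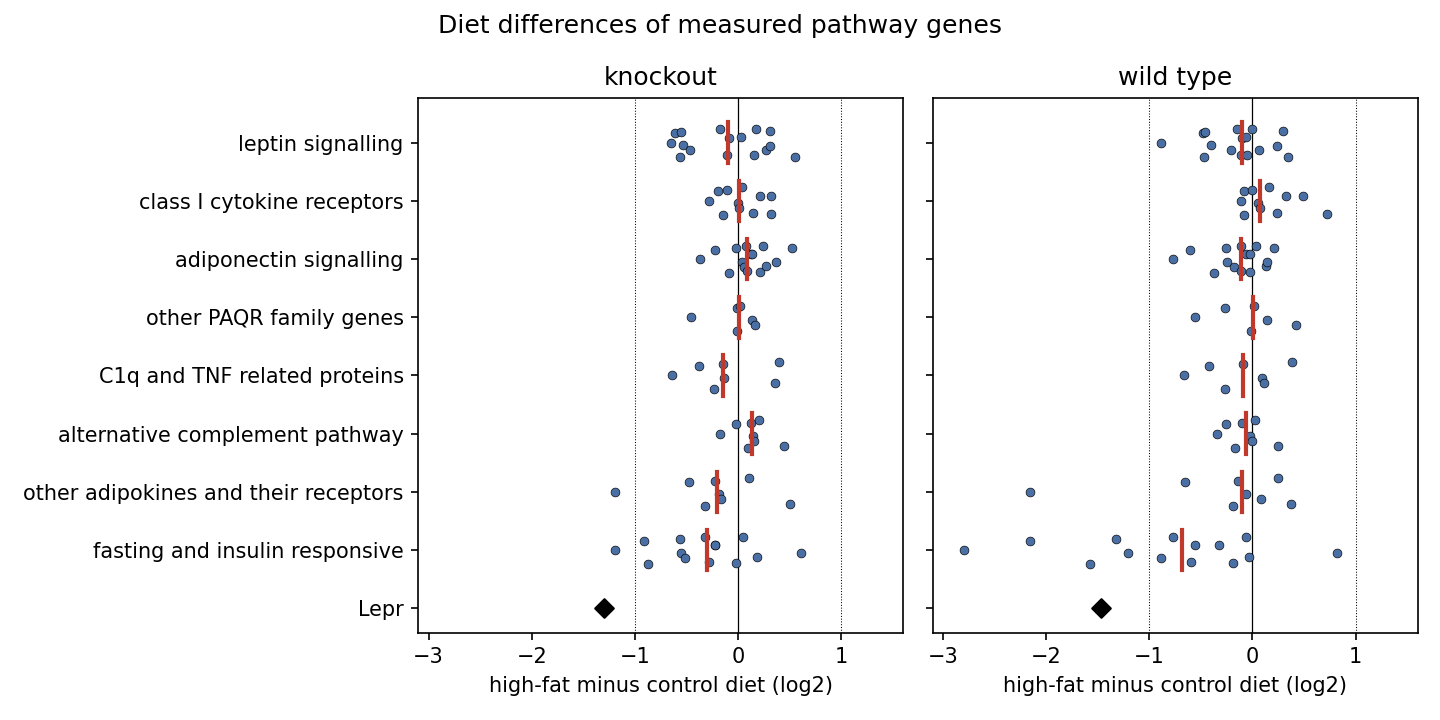
Log2 difference between high-fat and control diet (horizontal axis) in knockout (left) and wild type (right) for measured genes of 8 pathway lists; each blue point is a gene, red bars are list medians, dotted lines mark 2-fold, and the black diamond is Lepr. Of 81 distinct measured genes, 1 (Fgf21) was 2-fold lower in both genotypes.

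The genes nearest to Lepr over the 4 arrays were found by the Euclidean distance between log2 profiles after subtraction of each gene's own mean. Acacb, the acetyl-CoA carboxylase that makes malonyl-CoA at mitochondria, was the nearest, at a distance of 0.14, where the median over 12235 named genes was 1.42. Its log2 value was 5.19 in knockout on high-fat diet, against 6.64 in knockout on control diet, and 5.34 in wild type on high-fat diet, against 6.82 in wild type on control diet. Its diet differences of -1.45 and -1.48 were thus close to those of Lepr, and its genotype differences were -0.18 and -0.15.

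The next were Cdkn1a, a cell cycle inhibitor gene, at 0.31, Cyp4a31, a fatty acid hydroxylase gene whose probes may mix family copies, at 0.37, Rnu3a, a small nucleolar RNA gene with near-identical copies, at 0.38, and Chka, a choline kinase gene, at 0.45. Their wild-type diet differences were between -1.64 and -1.04 and their knockout differences between -1.02 and -0.67. Likeness over 4 arrays is a description, as many genes can share so short a profile.

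**Figure D4:**
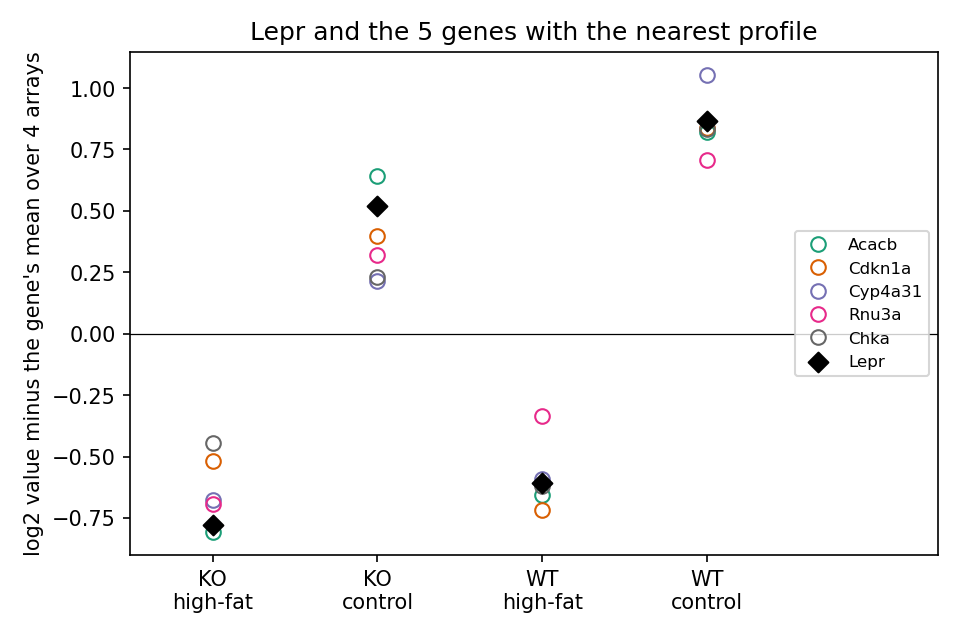
Log2 value minus the gene's mean over the 4 arrays (vertical axis) on each array (horizontal axis) for Lepr (black diamonds) and the 5 genes with the nearest profile (open circles). All 6 genes are below their mean on both high-fat arrays and above it on both control arrays; Acacb follows Lepr within a distance of 0.14.

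Transcripts of other tissues varied between the arrays. All 8 measured exocrine pancreas markers were higher on the high-fat array of each genotype, by a median of 1.12 in knockout and 2.22 in wild type. They were also higher in knockout, by a median of 1.16 on high-fat diet and 2.35 on control diet. Their summed log2 value was between 63.2 and 72.9 on the high-fat arrays and between 45.7 and 64.1 on the control arrays. Cpa1, a pancreatic carboxypeptidase gene, had a log2 value of 9.76 in knockout on high-fat diet, against 8.57 in knockout on control diet, and 8.62 in wild type on high-fat diet, against 6.30 in wild type on control diet. The array with the lowest Lepr was thus the highest in pancreas markers, and the array with the highest Lepr was the lowest. The wild-type high-fat and the knockout control arrays, a pair that differs in both genotype and diet and was picked after its marker values were seen, differed in the 8 markers by between -0.59 and 0.14, with a median of -0.06, and in Lepr by -1.13 (2.19-fold lower on the wild-type high-fat array). The part of pancreas transcripts in the Lepr values was not tested.

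Hepatocyte markers, among them Alb and Ttr, summed to between 99.4 and 99.6 on the high-fat arrays and between 99.2 and 99.6 on the control arrays, and Alb lay between 13.64 and 13.70. Of 9 stellate, 8 sinusoidal endothelial and 8 Kupffer cell markers, 0 reached 2-fold between 2 arrays. Both high-fat arrays were below both control arrays, as for Lepr, for 2 stellate, 4 endothelial and 1 of the Kupffer cell markers. They were above both control arrays for 1, 2 and 0 markers. Over all measured genes these shares were 21.2% and 19.1%. The part of stellate and endothelial cell transcripts in the Lepr values was not tested. The 8 Kupffer cell markers had a mean log2 value of 7.12 in knockout on high-fat diet and 7.13 in knockout on control diet. In wild type their mean was 7.12 on high-fat diet and 7.40 on control diet, the array with the highest Lepr. Not each marker was highest there. Clec4f was highest in knockout on control diet, at 8.77, and Vsig4 in knockout on high-fat diet, at 8.82. Cd5l was highest in wild type on high-fat diet, at 7.93. The other Kupffer cell markers were highest in wild type on control diet. On control diet 7 of the 8 were lower in knockout than in wild type, with a median of -0.18. Over all measured genes 53.3% were lower in that comparison, with a median of -0.02. Marco, a scavenger receptor gene of macrophages, was at 5.61 in knockout on high-fat diet, against 5.22 in knockout on control diet, and at 5.30 in wild type on high-fat diet, against 6.02 in wild type on control diet. Its diet difference in knockout minus that in wild type was 1.11. Adgre1, which encodes the macrophage marker F4/80, was at 6.90 in wild type on control diet, and between 6.26 and 6.44 on the other arrays. The part of Kupffer cell transcripts in the Lepr values was not tested. Skeletal muscle markers were high on the wild-type high-fat array alone: Acta1 was 5.93 there, against 4.37 on the wild-type control array. All 6 were 2-fold different in at least 1 comparison. In knockout Acta1 was 4.02 on high-fat diet, against 4.28 on control diet. The part of muscle transcripts in the Lepr values was not tested.

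**Figure D5:**
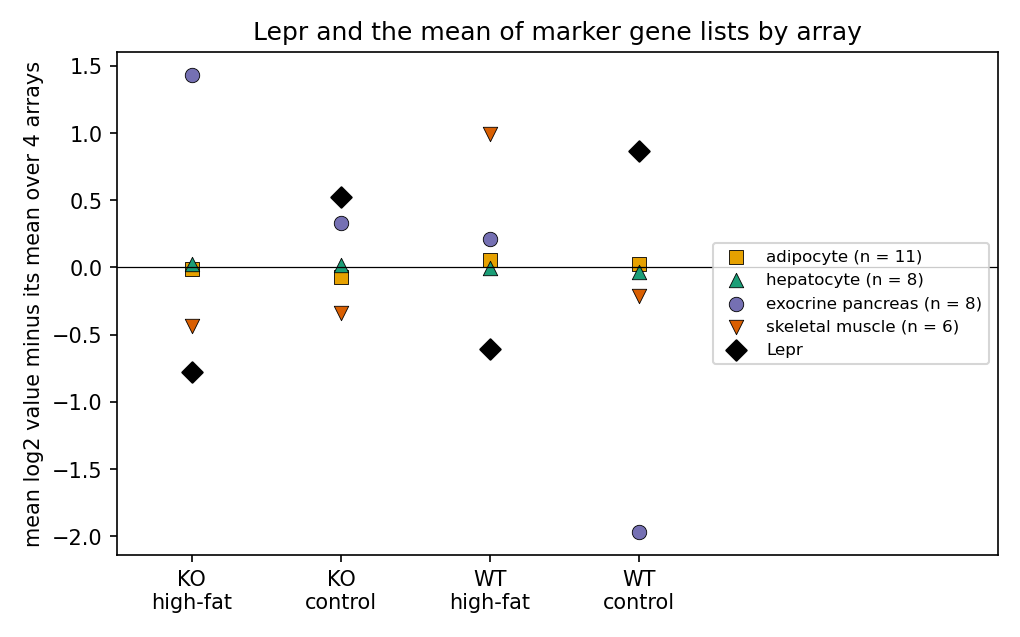
Mean log2 value of marker lists and value of Lepr, each minus its own mean over the 4 arrays (vertical axis), on each array (horizontal axis); n is the number of measured markers. Pancreas markers average 9.11 in knockout on high-fat diet and 5.72 in wild type on control diet. Muscle markers are high in wild type on high-fat diet. Hepatocyte and adipocyte markers stay near 0, and most adipocyte markers are little above the dim filter.

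Myd88, the targeted gene, had a log2 value of 6.23 in knockout against 6.44 in wild type on high-fat diet, and 5.91 in knockout against 6.10 in wild type on control diet. The position of its probes against the floxed exons was not analysed here, so these values do not check the deletion. Between all pairs of arrays the Pearson r over all probe sets was between 0.985 and 0.990.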

How the data were processed

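Pooled liver RNA was measured on 4 arrays, grouped by the titles in the labels. The authors deposited log2 expression values per probe set; the submitters' processing notes name RMA and Affymetrix Expression Console, with no version. RMA corrects background, equalises the arrays and summarises probes, and signal over background was not analysed here.

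Only the 23521 of 41345 probe sets annotated with 1 symbol were used (1814 had several, 16010 none), the one with the highest mean per gene, and genes with a mean under the 40th percentile (3.47) were left out. Differences are subtractions of log2 values, called at 2-fold. With 1 array a group and members known from these data no test was made, and an additive fit over the arrays was left out.

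The members and lists were chosen with earlier results of these data known. Named were the members, the 5 genes nearest to Lepr, Lep and Myd88. Per pathway list, up to 4 genes with the largest differences and all 2-fold ones were named. For markers the rule was the 2-fold and the 2 brightest ones, of which only examples are given. No stellate or sinusoidal endothelial marker was named. Some genes were added for their role or direction after values were seen (Il6st, Stat3, Ptpn1, Cfb, Plin1, Lipe, dim adipocyte markers, Srebf1, Fasn, Crlf2, Cntfr, Csad, Tubb2a, Marco, Adgre1, Cd5l). Of 179 distinct list genes 136 were measured.

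Alternatives were cyclic loess and quantile normalisation (limma 3.58.1, R 4.3.3), median centring, the mean of a gene's probe sets and other dim filters. Python 3.11.15, pandas 2.3.3, NumPy 2.4.6 and matplotlib 3.10.9 were used, and the steps were tested on simulated data.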

Additional observations from a re-analysis of the deposited data

Results flagged for a closer look

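The diet difference had opposite signs in the 2 genotypes for 4 of the 6 genes with a probe set. How many of all measured genes had opposite signs was not counted, so this number has no background. Over all measured genes the median diet difference was 0.01 in knockout and -0.03 in wild type. A diet difference was as small as -0.021 for Leprotl1 in wild type, 0.006 for Adipor1 in knockout and -0.005 for Adipoq in knockout. Each is 1 subtraction per genotype, and the difference between genotypes was not tested. The difference in knockout minus that in wild type was 0.50 for Leprot, which was higher on high-fat diet in knockout and lower in wild type under each scaling. It was 0.066 for Leprotl1 and 0.053 for Adipor1, both of which changed sign after cyclic loess and after quantile normalisation. It was -0.19 for Adipoq, which was below the dim filter.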

How the results depend on the processing

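Under all 214 recomputed values (cyclic loess, quantile normalisation, median centring, the mean over a gene's probe sets, no dim filter and a filter at the 60th percentile), no count of 2-fold genes moved by over 1.5 times and no member's difference moved by more than the robust SD of that difference over genes, which was between 0.18 and 0.29. Lepr's diet difference lay between -1.30 and -1.28 in knockout and between -1.48 and -1.41 in wild type. Signs within the members turned for differences near 0 alone, in 8 of 20 recomputed values of Leprotl1, 5 of 20 of Adipor1 and 5 of 20 of Adipoq, and in 0 of 20 each of Lepr, Leprot and Adipor2. Each member has 1 probe set, so its values from the mean over a gene's probe sets could not change. Those values are counted in the 20 per gene and in the 214. In cyclic loess the difference of diet differences became -0.037 for Leprotl1 and -0.034 for Adipor1. Of the 5 genes nearest to Lepr, 5 were shared under each scaling and 4 when the largest deviation replaced the Euclidean distance. List medians were small and moved by over 1.5 times under some scalings, as given beside the leptin, adiponectin and complement lists. Those of the cytokine receptors (up to 0.03 in knockout) and of the PAQR family did so too. The wild-type median of the PAQR family changed sign (-0.0062 after median centring). For the C1q and TNF related proteins the wild-type median went from -0.09 to -0.04 after cyclic loess and -0.02 after quantile normalisation. Some marker list medians near 0 moved likewise. Diet medians changed sign under at least 1 scaling for hepatocyte markers in both genotypes, stellate markers in wild type and endothelial markers in knockout. No paired analysis was possible because each group has 1 array. With 1 array a group no replicate could be left out, and signal over background is unknown for dim genes such as Adipoq.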
